A study of Homo sapiens with 4 samples.

Results

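Large chromatin regulators are described here as 9 genes, CHD3, CHD4, CHD8, SMARCA4, KMT2A, KMT2D, CREBBP, EP300 and SRCAP, among the 14387 gene symbols that the deposited PDCD4 and IgG site lists carry. A site belonged to a gene when the symbol stood in the site's gene label, whatever its score. This gave 441 of the 158922 PDCD4 sites and 209 of the 111361 IgG sites. All samples were wild-type MCF10A, an established, non-transformed human breast epithelial line, grown with serum, epidermal growth factor, insulin, hydrocortisone and cholera toxin. Cells were irradiated with UVC, which links RNA to the protein touching it, and lysates were immunoprecipitated with a PDCD4 antibody (2 replicates) or with isotype control IgG (2 replicates). In this assay (iCLIP), reverse transcription tends to end beside the linked nucleotide, so each listed site is 1 nt wide and its score counts the cDNAs found there. Of the markers for breast epithelium, all 7 had cDNAs in the PDCD4 list, from 3 for KRT14 to 808 for KRT7, whereas PTPRC, PECAM1, COL1A1 and COL1A2, markers of blood, endothelium and fibroblasts, were at 0 in both lists.

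PDCD4 is a tumour suppressor best known for binding the helicase eIF4A and holding back translation initiation. The 9 genes encode very large nuclear proteins that change how DNA is packed. CHD3, CHD4, CHD8, SMARCA4 and SRCAP are ATPases that slide, evict or exchange nucleosomes, KMT2A and KMT2D are methyltransferases that act on histone H3, and the paralogues CREBBP and EP300 are acetyltransferases that act as transcriptional coactivators. Their mRNAs are long and made of many exons, and iCLIP reports contact with the RNA, not with the encoded protein or with chromatin.

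The PDCD4 list held 409308 cDNAs and the IgG list 276139, and gene values are given per 10000 cDNAs of a list. Each list pools its replicates, so the text gives no SD and no p-value, and intervals (95%) cover counting error only. RNA abundance was not analysed here, so a level of crosslinked cDNAs cannot be told apart from the amount of the RNA. The authors' methods remove IgG crosslink positions from the PDCD4 data before peaks are called. In the deposited lists, 4 positions in the 9 genes still stood in both, among 441 PDCD4 sites. Over all genes 721 positions did, among 158922 PDCD4 sites. Such a removal bears on the ratios of PDCD4 over IgG and on the number of common positions, and its effect was not tested. Gene labels were not written alike in both lists where genes overlap. SRCAP (chr16:30698209-30741409, plus strand, GRCh38) shares its strand and much of its length with the gene labelled RP11-2C24.9 (chr16:30704067-30745169). Inside SRCAP, 11 IgG sites with 26 cDNAs carried only the RP11-2C24.9 label and were missed by the symbol, against 0 PDCD4 sites. In CHD4, 1 PDCD4 site with 3 cDNAs carried only the label SCARNA11. The other 7 genes had no such site. SRCAP is therefore given below both by label and by coordinates.

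The strongest contacts are shown first, because they are the positions where the evidence per nucleotide is greatest. Scores in the 9 genes ran from 1 to 8 in the PDCD4 list, with a median of 3, and from 1 to 6 in the IgG list, with a median of 2. Scores greater than 5, the threshold in the authors' methods, were reached by 10 PDCD4 sites, 2.27% of the member sites against 1.48% of all PDCD4 sites. In the IgG list, 1 member site passed (0.478%, against 0.690% of all IgG sites). The 10 PDCD4 sites lay in 7 genes, and CHD8 and EP300 had none. Of these 10 sites, 9 lay in coding sequence. The coding share of all PDCD4 sites above this score is not given here for comparison. Each is printed below as the reference sequence of the transcribed strand (GRCh38), 5′ to 3′, with the crosslinked nucleotide as the capital letter and 10 nt on either side.
CHD4 intron 31, score 8, chr12:6581602-6581622, minus strand: tgtccctctcTttttgtcctg
KMT2D exon 52, score 8, chr12:49022766-49022786, minus strand: tgcactccaaGtcatctcagt
CHD3 exon 11, score 7, chr17:7897123-7897143, plus strand: ggaagaatgaCatggatgagc
SRCAP exon 25, score 7, chr16:30723814-30723834, plus strand: actgtttctgCttcgggccca
SRCAP exon 25, score 6, chr16:30723788-30723808, plus strand: tcaccatcccCatctcagccc
CHD4 exon 5, score 6, chr12:6601747-6601767, minus strand: ggagcctaaaTcatctgctca
CREBBP exon 31, score 6, chr16:3727725-3727745, minus strand: gctagagaagTttgtggaggg
KMT2A exon 27, score 6, chr11:118504636-118504656, plus strand: cttcctctatCtcagcagagg
SMARCA4 exon 19, score 6, chr19:11021821-11021841, plus strand: cgccgcctgcTgctgacgggc
SMARCA4 exon 30, score 6, chr19:11041378-11041398, plus strand: gcgagacagcGacgccggctc
The IgG site with a score greater than 5 lay deep in a CHD4 intron.
CHD4 intron 37, IgG, score 6, chr12:6575780-6575800, minus strand: gagaaaggtgGacgggctaga

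The coding sites above had C, T or G at the crosslinked base, and the CREBBP and KMT2D sites lay near the ends of their coding sequences, at 99.8% and 97.2% of the length. The CHD4 intron site stood apart in position. It lay 3 nt before the start of SCARNA11, a small Cajal body RNA gene inside CHD4 intron 31 (chr12:6581474-6581609, minus strand). With its neighbour it formed a pair of sites with 9 cDNAs. The IgG list had a site with 3 cDNAs at the adjoining nucleotide (chr12:6581611), also just before SCARNA11. Inside SCARNA11 itself the IgG list had 4 sites with 13 cDNAs, all labelled CHD4, and the PDCD4 list had 1 site with 3 cDNAs. A second such gene, SCARNA21 in CHD3, had 2 sites in each list, with 6 PDCD4 and 5 IgG cDNAs.

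The 30 nt with the most cDNAs over both lists lay in SMARCA4 exon 4. Both lists had sites there, so the same window (chr19:10986481-10986510, plus strand, GRCh38) is printed for each with its crosslinked nucleotides in capitals.
SMARCA4 exon 4, PDCD4 sites: GatgccaacgCtacCTccaccctcggtgTc
SMARCA4 exon 4, IgG sites: gatgcCaacgCtacctccaccCtcggtgtc
The window held 19 PDCD4 cDNAs at 5 sites and 8 IgG cDNAs at 3 sites, and 1 position was common to both. The other common positions in the 9 genes were a pair in CHD4 exon 33 and 1 position in SRCAP exon 25. At the SRCAP position (chr16:30724283-30724303 with 10 nt on either side) both lists counted 4 cDNAs.
SRCAP exon 25, both lists: ctgtcctggcTtcatcacaga
The CHD4 pair lay 2 nt apart, with 5 PDCD4 and 1 IgG cDNAs at the position printed here (chr12:6581159-6581179, minus strand), and 2 PDCD4 and 3 IgG cDNAs at its neighbour.
CHD4 exon 33, both lists: ttgaagtgtaCacaggcccct

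Taken as a group, the 9 genes held 1221 PDCD4 cDNAs, or 29.8 per 10000 (28.2 to 31.6), and 532 IgG cDNAs, or 19.3 per 10000 (17.7 to 21.0). The level was 1.55 times higher in the PDCD4 list, a log2 ratio of 0.63 (0.48 to 0.78). By coordinates the sums were 1224 and 558 cDNAs and the log2 ratio 0.56 (0.42 to 0.71). Single genes ran from -0.72 for CHD8 to 1.69 for SRCAP, with a median of 0.41, against a median of -0.09 (quartiles -0.71 and 0.62) over the 7299 genes with at least 20 cDNAs over both lists. A log2 ratio above 0 was found for 8 of the 9 genes and for 46.3% of the 7299. A ratio above 2-fold (log2 above 1) was found for 2 of the 9, SMARCA4 and SRCAP, against 16.4% of all genes tested, and by coordinates for SMARCA4 alone. None of the 9 lay below -1, where 16.0% of all genes tested did. The counting interval lay wholly above 0 for CHD4, SMARCA4, KMT2D and SRCAP (4 of 9, against 20.2% of all genes tested) and wholly below 0 for CHD8 (1 of 9, against 23.8%). The 9 genes had 44 to 234 PDCD4 and 25 to 86 IgG cDNAs each, against medians of 31 and 22 over the 7299 genes. With larger counts, intervals are narrower and ratios scatter less. The shares of genes compared here were not matched for counts.

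**Figure D1:**
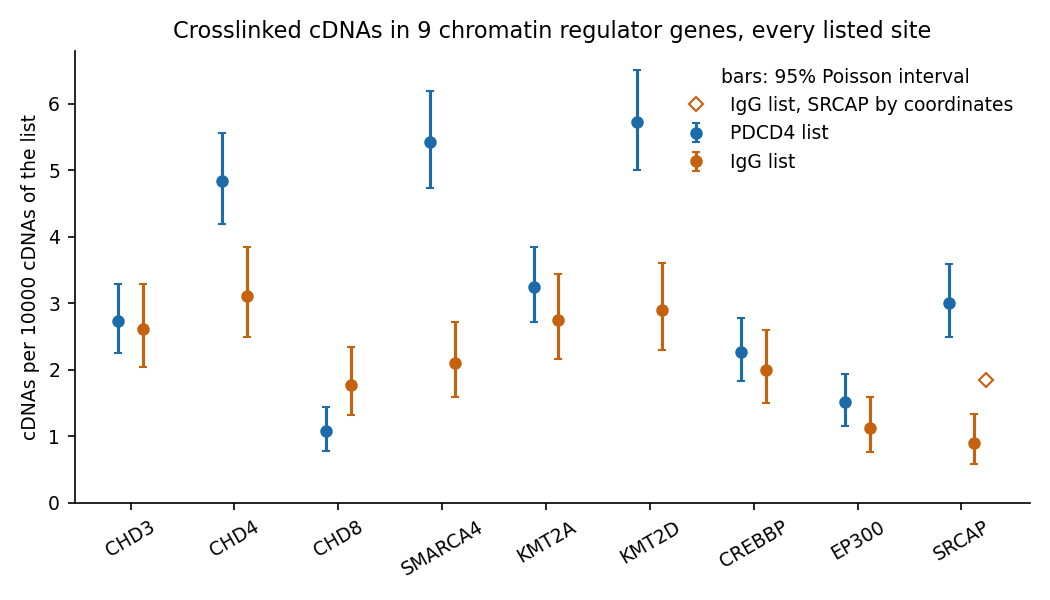
Crosslinked cDNAs of each gene per 10000 cDNAs of the list (y axis), by gene (x axis), with filled points for the labelled sites of the PDCD4 and IgG lists and bars for the 95% Poisson interval of the count. SMARCA4 and KMT2D show the widest gaps and CHD8 alone is lower in the PDCD4 list; the open diamond is the IgG level of SRCAP by coordinates (1.85), which narrows its gap.

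Among the remodelling ATPases, CHD3 and CHD4 are alternative motors of the NuRD complex, which joins remodelling to histone deacetylation. CHD3 had 112 cDNAs at 40 PDCD4 sites and 72 at 29 IgG sites, which is 2.74 and 2.61 per 10000. Its log2 ratio of 0.06 (-0.37 to 0.52) did not exceed the counting error. CHD4 had 198 cDNAs at 71 PDCD4 sites and 86 at 34 IgG sites, or 4.84 and 3.11 per 10000. The intervals of the CHD4 levels did not overlap, and the log2 ratio was 0.63 (0.26 to 1.02). CHD8, a remodeller that also binds β-catenin, went the other way. It had 44 cDNAs at 20 PDCD4 sites and 49 at 20 IgG sites, or 1.07 and 1.77 per 10000, a log2 ratio of -0.72 (-1.34 to -0.11).

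SMARCA4 (BRG1) is a catalytic ATPase of the SWI/SNF complexes. It had 222 cDNAs at 85 PDCD4 sites, more sites than any other of the 9 genes, and 58 cDNAs at 24 IgG sites. The levels were 5.42 (4.73 to 6.19) and 2.10 (1.59 to 2.72) per 10000, and the log2 ratio was 1.35 (0.95 to 1.81). SRCAP is the ATPase that places the histone variant H2A.Z into nucleosomes. Under its label it had 123 cDNAs at 37 PDCD4 sites and 25 at 9 IgG sites, or 3.01 and 0.905 per 10000, a log2 ratio of 1.69 (1.10 to 2.41). Of these sites, 11 PDCD4 and 8 IgG sites carried the RP11-2C24.9 label as well. By coordinates the IgG count was 51 cDNAs at 20 sites, and the log2 ratio fell to 0.69 (0.22 to 1.20), a 1.61-fold difference in place of 3.22-fold.

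The histone H3 methyltransferases differed from each other. KMT2D had 234 cDNAs at 71 PDCD4 sites, the largest sum of the 9, and 80 at 32 IgG sites. These are 5.72 (5.01 to 6.50) and 2.90 (2.30 to 3.61) per 10000, with a log2 ratio of 0.97 (0.61 to 1.37). KMT2A, which is broken by translocations in acute leukaemia, had 133 cDNAs at 53 PDCD4 sites and 76 at 28 IgG sites. Its levels of 3.25 and 2.75 per 10000 gave a log2 ratio of 0.23 (-0.18 to 0.67), within the counting error.

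The acetyltransferases CREBBP and EP300 gave ratios within the counting error. CREBBP had 93 cDNAs at 41 PDCD4 sites and 55 at 22 IgG sites, or 2.27 and 1.99 per 10000, and a log2 ratio of 0.18 (-0.31 to 0.70). EP300 had 62 cDNAs at 23 PDCD4 sites and 31 at 11 IgG sites, or 1.51 and 1.12 per 10000, and a log2 ratio of 0.41 (-0.21 to 1.10).

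The sites of the 9 genes lay mainly in coding sequence, the part of the mRNA that is read by ribosomes. In the PDCD4 list 261 of 441 sites were coding, 59.2% (Wilson interval 54.5% to 63.7%), and in the IgG list 90 of 209, 43.1% (36.5% to 49.8%). Over all genes the coding shares were 20.9% and 9.74%. Introns held 94 PDCD4 sites (21.3%) and 81 IgG sites (38.8%), against 49.6% and 66.0% over all genes. The 3′UTRs held 64 PDCD4 sites (14.5%) and 22 IgG sites, and the 5′UTRs 4 and 2 sites. Exons of noncoding transcripts held 18 PDCD4 sites and 14 IgG sites, of which 16 and 8 lay in retained-intron isoforms of the genes themselves and the others in the small RNA genes named above. For 8 of the 9 genes the coding share of sites was higher in the PDCD4 list, which is also the direction of the whole lists. CHD8 was the exception, with 6 coding sites of 20 against 10 of 20. For KMT2A the coding share of cDNAs was 52.6% in both lists. How many of all genes had a higher PDCD4 share is not given here. SRCAP had the highest PDCD4 coding share (30 of 37 sites, 81.1%).

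**Figure D2:**
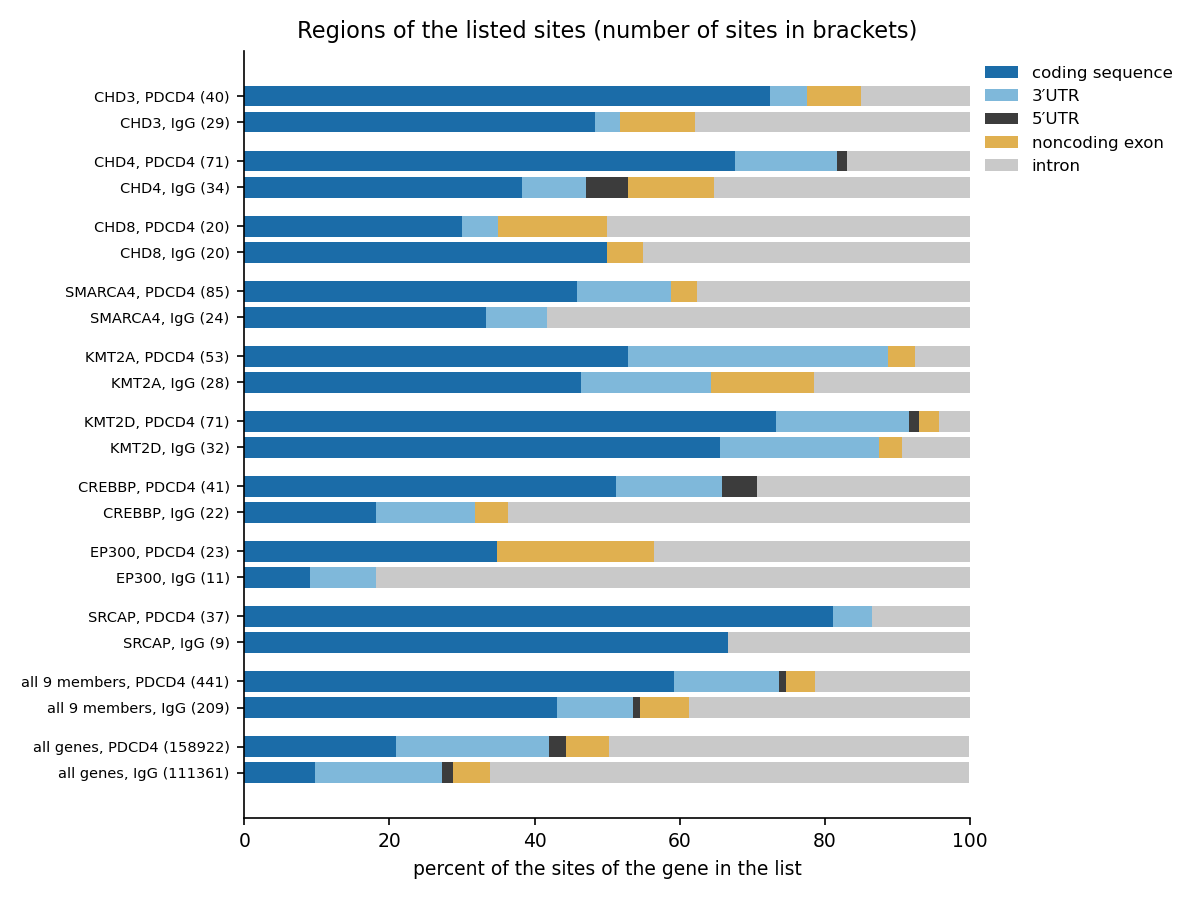
Percent of the sites of a gene (x axis) that lie in each region of GENCODE release 44, for each gene in each list (y axis, number of sites in brackets), with the sums over the 9 genes and over all genes. Coding sequence makes up 59.2% of the PDCD4 and 43.1% of the IgG sites of the 9 genes, against 20.9% and 9.74% over all genes.

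Per length, coding sequence of the 9 genes carried 9.45 PDCD4 cDNAs per kb (754 cDNAs in 79.8 kb), 3′UTRs 6.15 (163 in 26.5 kb) and introns 0.481. The IgG list had 2.87 cDNAs per kb of coding sequence, 53 cDNAs in the 3′UTRs and 0.396 cDNAs per kb of intron. These densities are raw cDNAs, and the PDCD4 list is the deeper one. Per 10000 cDNAs of a list, the intronic level of the 9 genes was lower in the PDCD4 list (6.13 against 7.50, log2 ratio -0.29, -0.56 to -0.02). Over all genes the intronic log2 ratio on this scale was -0.44. The order of the genes by coding PDCD4 cDNAs per kb was CHD4 (22.2, interval 18.7 to 26.2), SMARCA4 (18.2, 14.8 to 22.0), CHD3 (12.4, 9.84 to 15.4), KMT2D (10.6), SRCAP (10.1), CREBBP (6.59), KMT2A (5.74), EP300 (3.04, 1.90 to 4.60) and CHD8 (1.89, 1.06 to 3.11). Every neighbouring pair in this order overlapped in its counting intervals. CHD4 and CHD8, at its ends, did not. In the IgG list the highest coding density was that of CHD3 (5.05 cDNAs per kb), followed by CHD4 (4.31), and the lowest that of EP300 (0.414).

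Because coding sequence took a larger share of the whole PDCD4 list than of the IgG list, the coding cDNAs were also set against the coding total of each list (90943 and 28522 cDNAs). On this scale the difference of the group was gone: 82.9 PDCD4 and 80.3 IgG cDNAs per 10000 coding cDNAs, a log2 ratio of 0.04 (-0.17 to 0.27), and -0.06 (-0.26 to 0.16) by coordinates. The ratio was above 0 for 5 of the 9 genes, and for 4 by coordinates. None passed 2-fold upwards, as 21.4% of the 1441 genes tested on this scale did. CHD4 stayed higher in the PDCD4 list, with 139 against 27 coding cDNAs and a log2 ratio of 0.65 (0.09 to 1.34). SMARCA4 had 102 against 21 coding cDNAs and a log2 ratio of 0.55 (-0.08 to 1.36), within the counting error.

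KMT2D, among the highest on the scale of the whole list, had 177 against 56 coding cDNAs and a log2 ratio of -0.03 (-0.45 to 0.45). SRCAP was at 0.97 (0.26 to 1.94) by label, with 99 against 15 coding cDNAs, and at -0.03 (-0.59 to 0.63) by coordinates, with 99 against 31. CHD8 (15 against 25 coding cDNAs, log2 ratio -2.37, -3.44 to -1.43) and KMT2A (70 against 40, -0.88, -1.45 to -0.27) were lower in the PDCD4 list. CHD8 was the 1 member beyond 2-fold in that direction, against 19.1% of the genes tested.

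**Figure D3:**
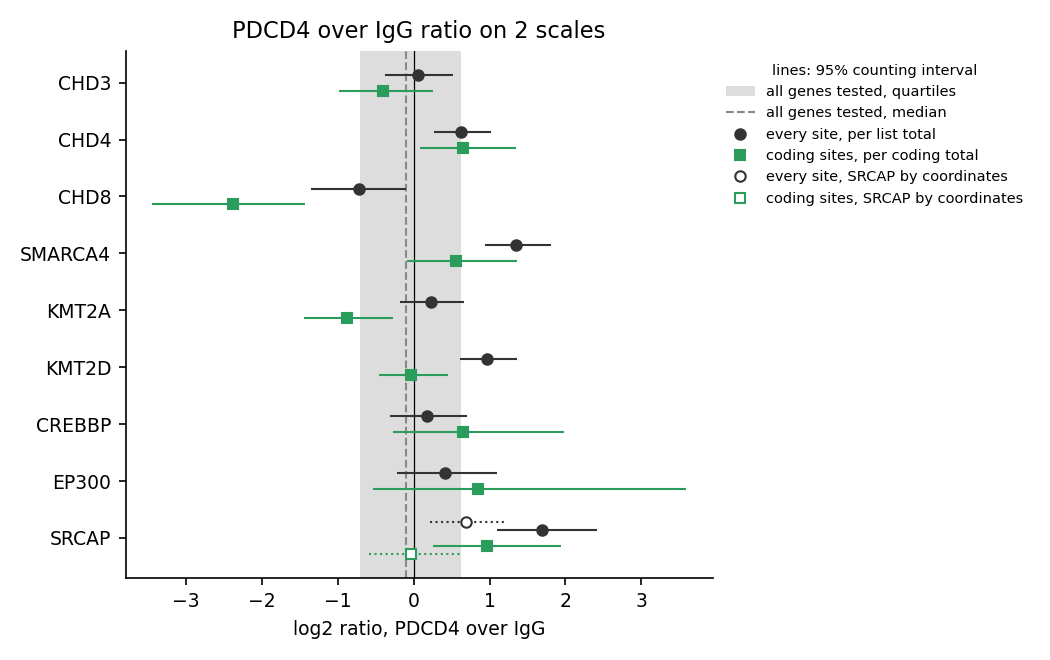
Log2 ratio of the PDCD4 over the IgG level (x axis) of each gene (y axis), for every site per list total (circles) and for coding sites per coding total (squares), with 95% counting intervals as lines; open symbols give SRCAP by coordinates, and the grey band and dashed line are the quartiles and the median of the 7299 genes tested. The circles of 8 genes lie above 0, while the squares spread on both sides of it, from -2.37 for CHD8 to 0.97 for SRCAP. The band and the dashed line are for every site per list total and apply to the circles only. For coding sites per coding total the median was 0.02 over 1441 genes.

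Other regions gave different orders. KMT2A had 50 PDCD4 and 13 IgG cDNAs in 3′UTRs, 35.8% and 17.9% of its sites, and a log2 ratio of 1.30 (0.47 to 2.38) per list total there. Some of these sites lay in the 3′UTRs of shorter isoforms, among them 4 PDCD4 sites with 9 cDNAs inside intron 7 of the canonical transcript. Over the 9 genes, 3′UTR cDNAs set against the 3′UTR total of each list gave 0.81 (0.38 to 1.31), from 163 PDCD4 and 53 IgG cDNAs. Intronic cDNAs set against the intronic totals gave 0.15 (-0.12 to 0.43), from 251 and 207 cDNAs. Both values are by label. They leave out IgG sites in the SRCAP 3′UTR (2 and 3 cDNAs) and introns (3 and 2 cDNAs) that carried only the RP11-2C24.9 label.

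SMARCA4 held 88 of the 251 intronic PDCD4 cDNAs of the group, at 32 sites, against 32 IgG cDNAs at 14 sites. Its intron 30 (16694 nt, chr19:11041561-11058254) had 25 PDCD4 cDNAs at 10 sites and 0 IgG cDNAs, a count that allows up to 3 by the one-sided limit. The first intron of CHD8 had 17 PDCD4 cDNAs at 8 sites and 9 IgG cDNAs at 4 sites, and the first intron of EP300 had 11 cDNAs in each list. Per list total, the intronic log2 ratio was below 0 for 7 of the 9 genes, and over all genes together it was -0.44. The interval lay wholly below 0 for CHD3 (16 against 28 cDNAs, -1.34, -2.36 to -0.44) and CREBBP (28 against 34, -0.84, -1.62 to -0.08). Both of these intervals reached the value over all genes. For SMARCA4 the interval lay wholly above 0 (0.86, 0.29 to 1.52). Of the 94 intronic PDCD4 sites, 24 were followed by 30 nt that occur elsewhere in the genome as well, so their placement is less certain, as for 13 of the 81 intronic IgG sites. Of the 261 coding PDCD4 sites, 1, in KMT2D, was of that kind.

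Within the mRNAs, the exonic sites, UTRs included, were spread over many exons. In CHD4, 24 of 40 exons had a PDCD4 site and 11 an IgG site, and in CHD3 19 and 12 of 40. With UTRs counted, the leading exon was the last one in KMT2D (48 PDCD4 and 16 IgG cDNAs), KMT2A (34 and 17), CREBBP (31 and 9) and CHD4 (25 and 6), and an internal one in the other 5 genes. By coding cDNAs alone, the last exon led in CREBBP only (exon 31, 17 PDCD4 and 0 IgG cDNAs). The leading coding exon was then exon 11 in KMT2D (36 and 8 cDNAs), exon 27 in KMT2A (27 and 20) and exon 16 in CHD4 (13 and 0). SMARCA4 exon 4 (405 nt, chr19:10986189-10986593), which contains the window printed above, had 34 PDCD4 cDNAs at 11 sites, 29.1% of the exonic PDCD4 cDNAs of the gene, in 7.26% of its transcript length. The IgG list had 8 cDNAs there, all in the printed window. SRCAP exon 25 (1499 nt, chr16:30723584-30725082) had 38 PDCD4 cDNAs at 10 sites, including both of its sites with scores greater than 5, and 6 IgG cDNAs by label or 9 by coordinates.

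Exon length changed the share of exons with a site more than the density. Of the 24 exons of at least 500 nt, 79.2% had a PDCD4 site and 70.8% an IgG site. Of the 257 exons under 200 nt, 26.8% and 11.7% did. The PDCD4 density was 8.05 cDNAs per kb in the former and 9.17 in the latter, and 13.5 in the 59 exons from 200 nt to under 500 nt, with IgG densities of 2.92, 2.81 and 2.86. Few sites lay near the downstream ends of exons. With last exons left out, the final 60 nt of exons made up 27.2% of the exonic length of the canonical transcripts and held 4 of 243 PDCD4 sites, 1.65% (0.642% to 4.16%), and 0 of 88 IgG sites, up to 4.18%. The shares over all genes were 4.84% and 7.07%. The share of exonic length in the final 60 nt was not computed for all genes, so the 2 sets cannot be compared per length.

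**Figure D4:**
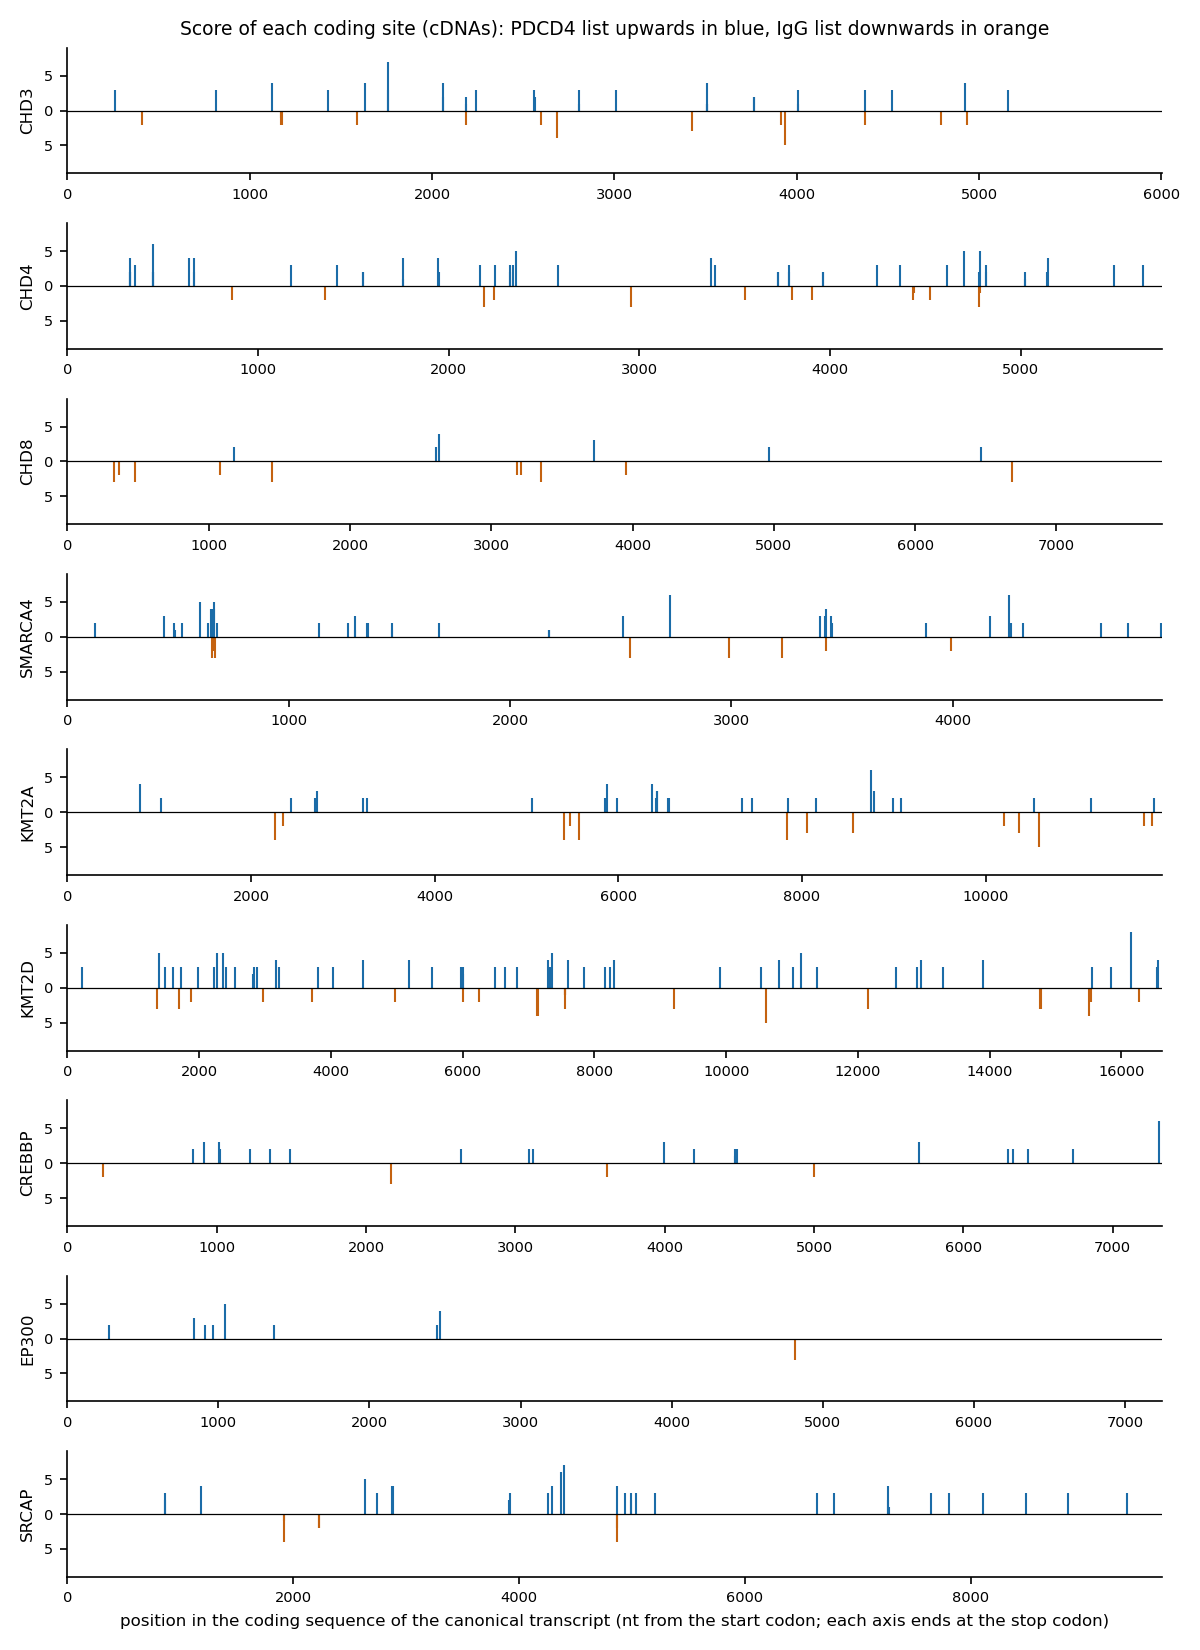
Score of each coding site in cDNAs (y axes, PDCD4 list upwards, IgG list downwards) against its position in the coding sequence of the canonical transcript in nt from the start codon (x axes), for sites under each gene's own label. SMARCA4 has a dense group in exon 4 in both lists, EP300 has its 8 PDCD4 sites in the first part of the coding sequence, and the highest bar is the KMT2D site of score 8.

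Along the coding sequence, the part beyond the midpoint held 113 of the 258 PDCD4 sites placed in canonical transcripts, 43.8% (37.9% to 49.9%), and 42 of 90 IgG sites, 46.7% (36.7% to 56.9%), against 49.4% and 52.2% over all genes. The genes varied. EP300 had 0 of 8 PDCD4 sites beyond the midpoint, KMT2D had 16 of 52 (30.8%, 19.9% to 44.3%), and KMT2A had 18 of 28 (64.3%, 45.8% to 79.3%). Sites also came close together. Of the PDCD4 sites, 116 (26.3%) had another site of the same gene and list within 3 nt, and 27 IgG sites (12.9%) did. CHD4 (44 of 71 sites) and CHD3 (22 of 40) led, whereas CHD8 had 0 of 20. The PDCD4 list is denser, and the shares were neither corrected for that nor set beside shares over all genes.

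The crosslinked base was most often a pyrimidine. At the coding PDCD4 sites of the 9 genes it was C at 42.1% (36.3% to 48.2%), T at 31.0%, G at 14.9% and A at 11.9% of the 261 sites. Over all coding PDCD4 sites C made up 33.2% and T 34.4%. The 15 nt on either side held 55.4% G and C in the 9 genes and 50.3% over all genes. At the 90 coding IgG sites of the 9 genes C made up 35.6% (26.4% to 45.9%) and T 33.3%. In introns T led in both lists, at 63.8% (53.8% to 72.8%) of the PDCD4 and 55.6% (44.7% to 65.9%) of the IgG sites, against 50.1% and 53.6% over all genes.

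Other genes of the same complexes and families were read in the same way, by the symbol in the label. Sites missed by the label, as in SRCAP, were not looked for in these genes or in the background. Of 69 such genes, 58 had at least 20 cDNAs over both lists. Their median log2 ratio was 0.00, and 29 of 58 lay above 0. Above 2-fold were 10 (17.2%, against 16.4% of all genes tested), and 4 lay below -1. The median was 0.32 for 11 other NuRD subunits, 0.00 for 16 SWI/SNF subunits and 0.38 for 13 COMPASS genes. It was 0.47 for 4 genes of the SRCAP, EP400 and INO80 complexes, -0.13 for 6 CHD genes and -0.53 for 8 acetyltransferases or cofactors.

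Among the 58, the highest ratio was that of RUVBL2, an AAA ATPase shared by the SRCAP and INO80 complexes, with 40 PDCD4 and 3 IgG cDNAs and a log2 ratio of 2.79 (1.52 to 5.51). KMT2B, the paralogue of KMT2A, had 69 and 6 cDNAs and a log2 ratio of 2.75 (1.76 to 4.45). The SWI/SNF subunits DPF2 (20 and 2 cDNAs, 2.24, 0.71 to 5.90) and SMARCD1 (25 and 3, 2.13, 0.78 to 4.86) and the NuRD subunit MTA2 (50 and 10, 1.65, 0.76 to 2.90) followed. At the other end of the 58, CHD1L had 15 PDCD4 and 63 IgG cDNAs, a log2 ratio of -2.57 (-3.56 to -1.81), and the COMPASS genes DPY30 and KDM6A (a histone demethylase) were at -1.31 (-2.03 to -0.66) and -1.21 (-1.80 to -0.65). The SWI/SNF subunits BRD9 and PBRM1 were at -1.05 (-1.62 to -0.51) and -0.83 (-1.43 to -0.23).

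**Figure D5:**
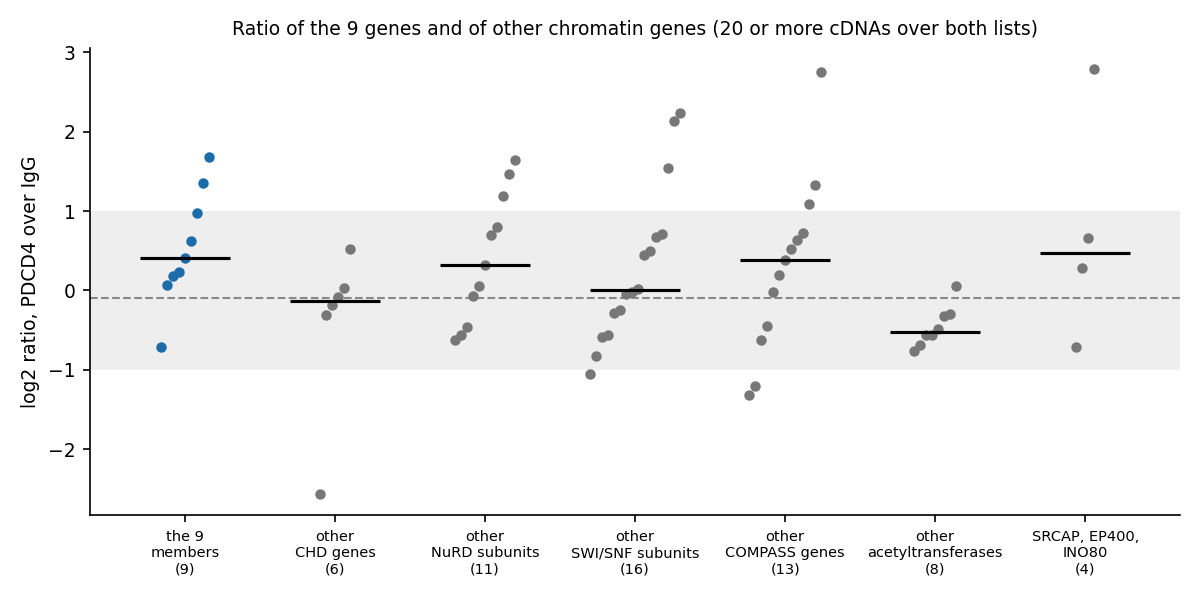
Log2 ratio of the PDCD4 over the IgG level (y axis) of the 9 genes (blue) and of other chromatin genes by family (x axis, number of genes in brackets), 1 point a gene, with bars at the medians; the grey band spans 2-fold either way and the dashed line is the median of all genes tested. The medians of the families lie between -0.53 and 0.47, and that of the 9 genes is 0.41, all for every site per list total.

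By the shares of sites in each of the regions above in both lists, the genes most like the 9 as a group were sought among the 463 genes with at least 50 PDCD4 and 20 IgG sites, as the sum of the differences in percentage points. EIF3A, a subunit of the translation initiation factor eIF3, was nearest (33.5 points), followed by DST, a cytoskeletal linker (38.3), PRKDC, the catalytic subunit of a DNA repair kinase (49.1), PRRC2C (51.8) and MDN1, an ATPase of ribosome assembly (55.4). CHD4 itself ranked second with 37.8 points, and SMARCA4, KMT2A and KMT2D ranked 18, 25 and 45. The log2 ratios of the 5 genes outside the group ran from -0.13 for PRRC2C to 1.11 for EIF3A.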

How the data were processed

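The authors mapped reads to the human genome of Ensembl release 88 (GRCh38), called crosslink sites with iCount at a false discovery rate of 5% and pooled the replicates into 1 list per immunoprecipitation. The score that the authors deposited is the raw count of cDNAs at a site, without normalization. Versions of iCount and settings of mapping and of cDNA collapsing are not given in the sources used here. The methods' filter on scores greater than 5 is not applied in the deposited lists and was used as an alternative.

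Sites were taken by gene symbol, and sites with several labels (3255 PDCD4, 2325 IgG) were counted for each gene. Regions came from GENCODE release 44 for the strand of the site, taking coding sequence first, then 3′UTR, 5′UTR, noncoding exon and intron, over all transcripts. The annotation knew the Ensembl identifiers of 99.5% of sites in each list. Exon and intron numbers are those of the canonical transcript. Sums are per 10000 cDNAs of a list. Log2 ratios have a pseudocount of 1 cDNA and exact (Clopper-Pearson) intervals without it, shares have Wilson intervals and sums Poisson intervals. With 1 list per group, PDCD4 was compared with IgG without a test. Genes with at least 20 cDNAs over both lists served as the background. The ratios were tested on simulated data. The 9 genes, the other chromatin genes and the alternatives were chosen with earlier results of these data known. Named genes are the 9, the 5 highest and the 5 lowest of the other chromatin genes, and the 5 most like the 9. Scripts ran in Python 3.11.15 (pandas 2.3.3, scipy 1.17.1, numpy 2.4.6, matplotlib 3.10.9).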

Additional observations from a re-analysis of the deposited data

How the results depend on the processing

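The log2 ratio of the 9 genes was 0.63, and 10 of 13 alternatives stayed within its counting interval. It moved to 1.30 with scores greater than 5, where 66 PDCD4 and 6 IgG cDNAs remain, to 0.042 for coding sites per coding total, and to -0.055 for the same by coordinates. The number of genes above 2-fold was 2, and it was 4 with scores greater than 5, 3 with scores of at least 2, 0 for coding sites by label or by coordinates, and 1 with members by coordinates. The coding share of PDCD4 sites moved from 59.2% to 43.3% and that of IgG sites from 43.1% to 28.2% when UTRs were taken before coding sequence, and to 90.0% of 10 and 0% of 1 sites with scores greater than 5. In all 10 alternatives the PDCD4 coding share was the higher one. Of 106 values of single genes, 88 kept within the counting interval, 14 moved and 4 changed sign in a gene whose interval had lain off 0. For CHD4 this was with scores greater than 5 (-0.86, from 14 and 6 cDNAs). For KMT2D it was for coding sites by label or by coordinates (-0.030), and for SRCAP for coding sites by coordinates (-0.029). The KMT2D and SRCAP values had intervals that span 0, and no interval was computed for the CHD4 value. A further 6 changed sign in genes whose interval spans 0, 4 of them in CHD3 and 2 in KMT2A. Without sites of several labels, SRCAP rose to 4.25 (2.92 to 7.89, from 84 and 2 cDNAs). With scores greater than 5, CHD8 and EP300 have no site. The settings by coordinates, and one without sites in or within 10 nt of SCARNA11 and SCARNA21, were chosen after seeing the data. The cause of these shifts was not tested. No paired analysis was possible because each deposited list pools its replicates, and for the same reason no replicate could be left out. Depth limits the single genes: EP300 and SRCAP rest on 31 and 25 labelled IgG cDNAs.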
